A study of Homo sapiens with 8 samples.

Results

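Solute carrier (SLC) genes were examined in 8 RNA-seq libraries of NB4 cells, as the names of the deposited count tables that consist of SLC, a family number, A and a member number. Of the 37526 gene names listed in all 8 libraries, 334 had this form, and 147 of them had a summed count of at least 500 over the 8 libraries. These 147 genes are described here, and the other 187 names, of which 62 had no count in any library, were not followed further. The genes were thus selected on their summed count, which is given only as a description. In total, 14 of the 147 genes would have had under 500 counts without the group in which they were highest (SLC3A1, SLC4A8, SLC5A2, SLC6A8, SLC9A3, SLC12A5, SLC15A3, SLC16A10, SLC18A2, SLC25A42, SLC28A3, SLC31A2, SLC38A6 and SLC45A3). The values of these 14 against that group are descriptions, whatever their p, and counts of genes that differed between groups describe the genes kept and do not stand for all SLC genes. Just inside the limit were SLC4A8 with 517 counts, SLC16A10 with 521 and SLC38A6 with 563. Just outside were SLC4A5 with 472, SLC16A13 with 451 and SLC24A4 with 417.

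NB4 is a cell line from acute promyelocytic leukemia that carries the PML/RARα fusion and matures towards granulocytes under all-trans retinoic acid (ATRA). The cells were stably transduced with a lentiviral vector, either a control (shNC, called empty vector in the labels and scrambled in the study's methods) or one encoding shRNA against the H3K9 demethylase KDM3B (shKDM3B). Each was collected undifferentiated (groups shNC and shKDM3B) or after ATRA (groups shNC_ATRA and shKDM3B_ATRA), with 2 libraries in each of the 4 groups. The study's methods give 2 KDM3B target sequences, and the sample titles do not say which of them a knockdown library carried. The labels give 1 µM ATRA, where the study's methods write mM, for 24 or 48 hours without saying which time belongs to which library, and neither they nor the methods say whether replicates came from separate cultures or transductions, so the p-values measure the spread between these libraries, which may be technical.

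SLC proteins are membrane carriers that move amino acids, sugars, nucleosides, ions, metals, vitamins and lipids across the plasma membrane, the lysosome and the inner mitochondrial membrane. Some work alone, some as heteromers, such as the light chains SLC7A5 and SLC7A11 with the heavy chain SLC3A2, and some as exchangers that trade one solute for another. Proliferating leukemic cells are known for high amino acid, lactate and phosphate transport, and mature granulocytes for hexose uptake and for metal handling in phagosomes.

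The libraries held 9708739 to 33017787 counts on genes, and the 147 SLC genes together took 10200 to 11700 CPM (counts scaled to the same library total, each count divided by the library's counts on genes times 1e6). A group of 3 libraries stood apart: the share of read pairs assigned to no gene was 50.0% in shNC_ATRA replicate 2 and 51.4% and 51.0% in the shKDM3B_ATRA pair, but 8.49% to 9.62% in the other 5, shNC_ATRA replicate 1 included. The ATRA response of shKDM3B cells therefore cannot be told apart from this split, and the split crosses the shNC_ATRA pair. The share assigned to no gene is called the share outside genes below, as a label only, since where those pairs lie was not tested. KDM3B had 189 and 189 CPM in shNC, 76.4 and 85.0 in shKDM3B, 190 and 113 in shNC_ATRA, and 51.3 and 55.3 in shKDM3B_ATRA, so it was lower in every knockdown library than in every control library. The myeloid identity rested on MPO (4330 to 9400 CPM untreated), CTSG, CD33 and CSF3R, whereas ELANE was at or near 0, AZU1 and PRTN3 did not exceed 1.44 CPM, HBB was at 0 and CD3E and COL1A1 stayed under 1 CPM. Of the other genes on the list of further lineages, EPCAM had 12.6 to 19.0 CPM and PECAM1 28.7 to 96.3, the latter higher with ATRA. No other lineage is read from these values. The summed CPM of 5 genes of granulocytic maturation (ITGAM, ITGAX, NCF1, CYBB, FPR1) was 385 and 367 in shNC, 211 and 201 in shKDM3B, 3150 and 2820 in shNC_ATRA, and 1320 and 1620 in shKDM3B_ATRA. The summed CPM of the 7 promyelocyte genes was 4570 and 5640 in shNC, 8620 and 9650 in shKDM3B, 1080 and 885 in shNC_ATRA, and 3290 and 2370 in shKDM3B_ATRA, most of it MPO. Not all of the 7 followed MPO: CSF3R was higher with ATRA (67.6 and 65.9 CPM in shNC, 266 and 226 in shNC_ATRA) and lower in shKDM3B_ATRA (135 and 134), and CTSG, at 106 and 116 CPM in shNC, stayed under 4 CPM in every ATRA library. Both sums moved with both treatments, and their part in the SLC values was not tested. In bulk RNA, fewer cells of a type and less RNA per cell cannot be told apart.

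The promoters of 5 genes that carried the strongest or best-known ATRA changes are shown first, as RefSeq gives them in GRCh38.p14 (the sequence of hg38), from 250 bases before to 50 bases after a transcript start. RefSeq entries were matched for 117 of the 147 genes, and where several starts were listed, as for 41 of them, the one listed first was used. For SLC5A3, SLC7A5 and SLC20A1 this start is also the start of the GENCODE gene, whereas for SLC2A5 and SLC3A2 it lies 18843 and 25695 bases downstream of it, inside the annotated gene, and which start NB4 cells use was not tested. Capitals mark CACGTG, the E-box bound by MYC and MAX among others, or TGATGNAA on either strand, the core of the C/EBP-ATF element bound by ATF4. SLC2A5, which encodes the fructose carrier GLUT5, lies at chr1:9069586-9069885 on the minus strand, and SLC5A3, which encodes the sodium/myo-inositol carrier, at chr21:34073328-34073627 on the plus strand; both rose with ATRA. SLC7A5 (large neutral amino acids, chr16:87869458-87869757, minus strand), its heavy chain SLC3A2 (chr11:62881449-62881748, plus strand) and SLC20A1 (phosphate, chr2:112645689-112645988, plus strand) fell.
SLC2A5: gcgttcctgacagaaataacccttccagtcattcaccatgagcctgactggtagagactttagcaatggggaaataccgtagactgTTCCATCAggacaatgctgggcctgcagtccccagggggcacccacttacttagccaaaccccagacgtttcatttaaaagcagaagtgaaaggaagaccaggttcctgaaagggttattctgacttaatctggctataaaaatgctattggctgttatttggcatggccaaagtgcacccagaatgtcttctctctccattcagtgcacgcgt
SLC5A3: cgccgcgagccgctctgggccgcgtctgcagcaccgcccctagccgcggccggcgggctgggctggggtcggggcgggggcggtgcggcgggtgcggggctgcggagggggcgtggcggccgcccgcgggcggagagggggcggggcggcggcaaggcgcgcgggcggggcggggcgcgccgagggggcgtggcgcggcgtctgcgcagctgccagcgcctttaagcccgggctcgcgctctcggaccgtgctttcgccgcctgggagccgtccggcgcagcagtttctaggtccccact
SLC7A5: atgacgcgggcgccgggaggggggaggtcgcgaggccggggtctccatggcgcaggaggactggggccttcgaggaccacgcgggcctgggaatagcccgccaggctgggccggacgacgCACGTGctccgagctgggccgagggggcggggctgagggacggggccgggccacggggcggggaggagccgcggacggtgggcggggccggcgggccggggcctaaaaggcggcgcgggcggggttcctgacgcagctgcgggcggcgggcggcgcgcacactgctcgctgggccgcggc
SLC3A2: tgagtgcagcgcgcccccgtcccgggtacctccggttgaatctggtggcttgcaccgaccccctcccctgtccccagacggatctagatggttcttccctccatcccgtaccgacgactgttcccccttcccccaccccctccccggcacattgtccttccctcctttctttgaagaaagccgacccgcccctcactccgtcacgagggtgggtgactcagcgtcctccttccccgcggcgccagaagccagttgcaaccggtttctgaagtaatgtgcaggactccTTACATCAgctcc
SLC20A1: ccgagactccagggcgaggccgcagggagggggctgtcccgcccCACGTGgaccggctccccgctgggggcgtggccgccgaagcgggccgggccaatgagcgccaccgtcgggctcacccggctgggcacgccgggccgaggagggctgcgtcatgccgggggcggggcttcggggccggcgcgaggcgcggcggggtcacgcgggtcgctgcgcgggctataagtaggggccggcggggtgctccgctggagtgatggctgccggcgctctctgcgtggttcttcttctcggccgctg
CACGTG, which reads the same on both strands, occurred in 7.43% of 27305 RefSeq promoters, in 17 of the 117 SLC promoters (14.5%), in 3 of the 16 matched genes lower with ATRA in shNC (SLC7A5, SLC20A1 and SLC39A11) and in 1 of the 19 matched genes that were higher (SLC29A1). TGATGNAA, searched on both strands, occurred in 3.67% of all promoters, in 1 of the 3 windows listed for SLC3A2, in 7 SLC promoters (5.98%), in 3 of the 16 lower genes (SLC3A2, SLC38A1 and SLC39A11) and in 2 of the 19 higher ones (SLC2A5 and SLC25A11). The direct repeat of the retinoic acid half-site with 5 bases between (DR5), which retinoic acid receptors bind, searched on both strands, occurred in 0.0806% of all promoters and in 0 of the 117, which says only that these letters are not in this window. These matches are descriptions of sequence.

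In untreated shNC cells the SLC transcripts were dominated by a few carriers. Per kilobase of annotated exon, the highest levels were those of SLC25A5 (468 CPM per kb), the mitochondrial ADP/ATP carrier, and SLC1A5 (238), the glutamine carrier ASCT2. SLC7A5 (109), SLC25A3 (80.4, the mitochondrial phosphate carrier), SLC38A2 (59.1, a sodium-coupled neutral amino acid carrier) and SLC20A1 (51.9) followed. In unscaled CPM, SLC1A5 had 699 and 889 in the 2 shNC libraries, SLC25A3 746 and 685, and SLC25A5 804 and 651, so these 3 did not differ beyond their spread. SLC25A5 has near-identical copies elsewhere in the genome and its value is uncertain. In all 8 libraries, 102 of the 147 genes reached 10 CPM and 13 reached 100 CPM.

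ATRA in shNC cells was the first comparison. A gene was counted when the unadjusted P of edgeR's quasi-likelihood test was under 0.05, the fold change was at least 1.5 and both shNC_ATRA libraries lay outside the range of the shNC pair on the same side. Among 144 SLC genes tested, 26 were higher and 22 lower (18.1% and 15.3%), against 14.3% and 10.8% of all 12429 genes tested. With edgeR's p adjusted over all genes at 0.05, 14 were higher and 13 lower, where the shares over all genes were 7.84% and 5.06%. The transport groups described next hold few genes each and were not tested, so their counts are descriptions to be read against the shares of all genes. The median log2 fold change was 0.03 over the SLC genes and 0.02 over all genes. The exact permutation test of 2 libraries against 2 cannot go below 0.333 (two-sided), so no single-gene permutation p is given.

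**Figure D1:**
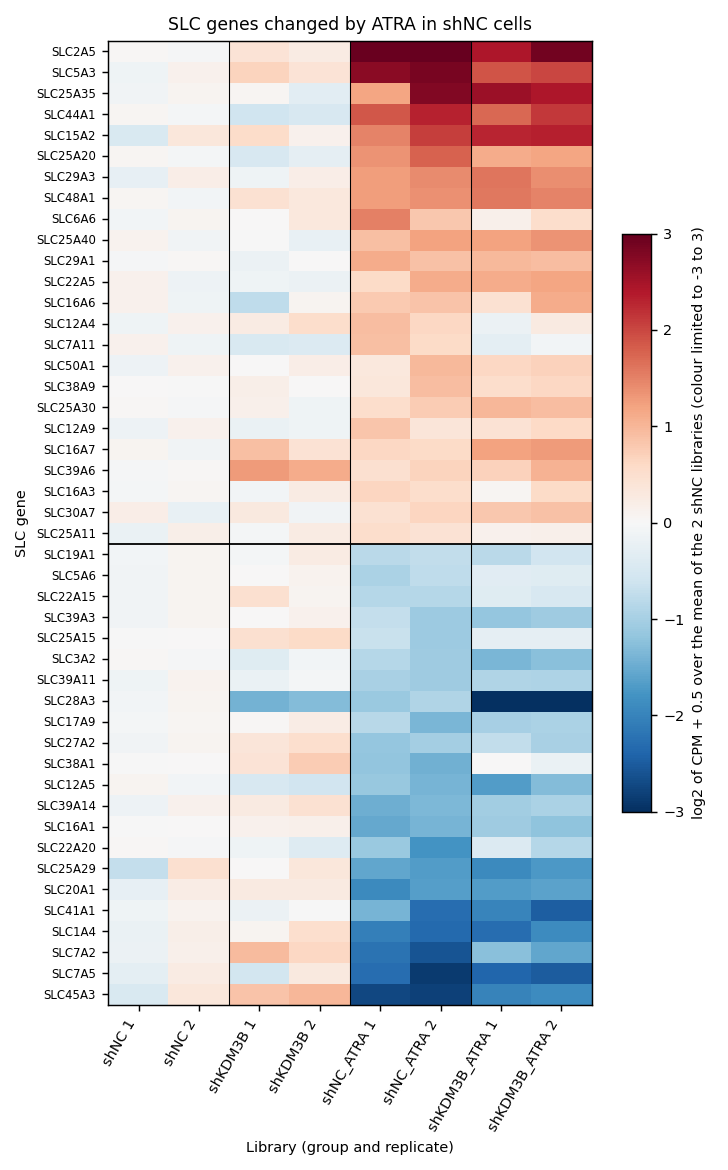
Heat map of 46 of the 48 SLC genes counted as higher (24 drawn, above the line) or lower (22) with ATRA in shNC cells, 1 column per library. Colour is the log2 ratio of CPM + 0.5 to the mean of the 2 shNC libraries; SLC2A5 and SLC5A3 lead the rises, SLC45A3 and SLC7A5 the falls, and SLC28A3 is far below its shNC level in shKDM3B_ATRA.

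Hexose and osmolyte carriers held the largest rises. SLC2A5 had 63.9 and 60.9 CPM in shNC, 82.9 and 74.3 in shKDM3B, 489 and 522 in shNC_ATRA, and 335 and 464 in shKDM3B_ATRA. Every ATRA library was above every untreated one, and the rise in shNC was 8.82-fold (log2 3.14, SE 0.22, edgeR adjusted p = 0.00031). SLC5A3, on chromosome 21 (34073578 to 34106260, hg38), had 21.7 and 26.2 CPM in shNC, 38.5 and 32.0 in shKDM3B, 160 and 175 in shNC_ATRA, and 90.4 and 97.6 in shKDM3B_ATRA. The 4 groups did not overlap in any pair, and the rise in shNC was 7.62-fold (log2 2.93, SE 0.23, edgeR adjusted p = 0.00046). The taurine carrier SLC6A6 had 102 and 113 CPM in shNC against 306 and 188 in shNC_ATRA, 2.48-fold (SE 0.26 on the log2 scale, edgeR adjusted p = 0.0179), and its call was lost without shNC replicate 1 (log2 1.21).

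The main glucose carriers did not pass the test. SLC2A1 (GLUT1) had 65.6 and 102 CPM in shNC and 95.9 and 88.3 in shNC_ATRA, within the same range, and SLC2A3 (GLUT3) had 34.5 and 66.7 against 61.0 and 68.4. SLC45A3, a sugar carrier of low level, went from 4.21 and 7.78 CPM to 0.474 and 0.43, 12.0-fold lower (log2 -3.59, SE 0.53, edgeR adjusted p = 0.00553); it had only 304 counts outside shKDM3B, where it was highest, and reached the summed-count limit through that group. SLC50A1, the sugar efflux carrier of the SWEET family, was higher at 41.2 and 64.8 CPM against 29.7 and 36.2. The summed CPM of the hexose group was 230 and 305 in shNC and 706 and 801 in shNC_ATRA, of which SLC2A5 made up the larger part.

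Of 19 amino acid carriers tested, 5 were lower and 2 higher. SLC7A5 (LAT1) had 423 and 617 CPM in shNC, 355 and 635 in shKDM3B, 106 and 71.1 in shNC_ATRA, and 99.9 and 91.1 in shKDM3B_ATRA. All 4 ATRA libraries lay below all 4 untreated ones, and the fall in shNC was 5.41-fold (log2 -2.44, SE 0.29, edgeR adjusted p = 0.00233). Its heavy chain SLC3A2 went from 226 and 217 CPM to 122 and 106, a 1.79-fold fall (SE 0.20 on the log2 scale, edgeR adjusted p = 0.0347). SLC7A2, a carrier of arginine and lysine, went from 55.4 and 68.9 CPM to 12.9 and 9.89, and SLC1A4 (ASCT1, alanine, serine and cysteine) from 28.8 and 37.3 to 7.58 and 6.11. Both falls were over 4-fold (5.03 and 4.43, edgeR adjusted p = 0.0016 and 0.00305). SLC38A1, a glutamine carrier, fell from 158 and 161 CPM to 69.8 and 58.5.

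The 2 amino acid carriers that were higher were SLC7A11, the cystine/glutamate exchanger, and SLC38A9, the lysosomal arginine sensor. SLC7A11 had 47.5 and 40.0 CPM in shNC and 82.3 and 65.4 in shNC_ATRA, 1.83-fold (SE 0.22 on the log2 scale, edgeR adjusted p = 0.0455). It shares the heavy chain SLC3A2 with SLC7A5, and the 3 transcripts thus went in different directions. The most abundant carriers SLC1A5 (831 and 666 CPM with ATRA) and SLC38A2 (272 and 356, against 355 and 414) did not pass the test, at log2 0.03 (SE 0.22) and -0.16 (SE 0.24).

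**Figure D2:**
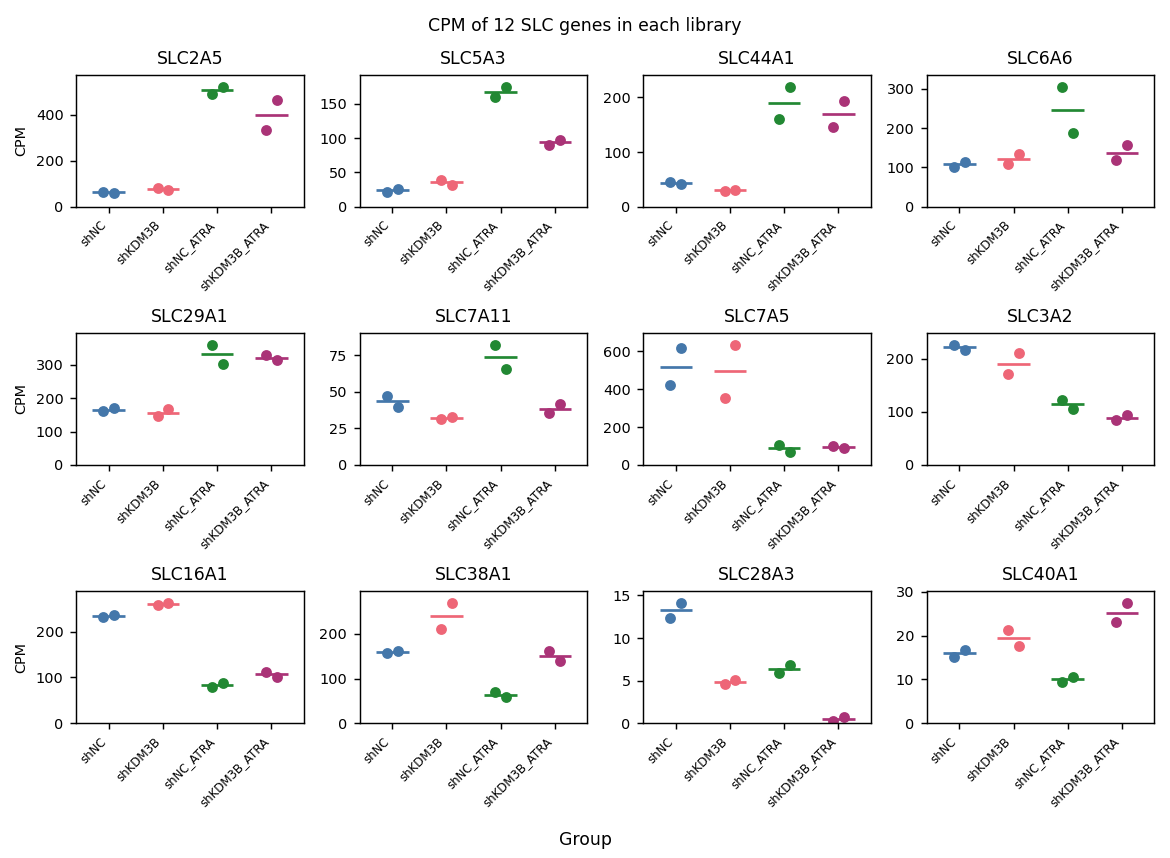
CPM (vertical axis, from 0) of 12 SLC genes in the 2 libraries of each group (points), with the group mean as a line. SLC2A5, SLC5A3, SLC44A1 and SLC29A1 are higher in every ATRA library than in every untreated one, SLC7A5, SLC3A2 and SLC16A1 lower, and SLC28A3 is lowest in shKDM3B_ATRA.

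Among the monocarboxylate carriers of the plasma membrane, which move lactate and pyruvate with a proton, SLC16A1 (MCT1) went from 231 and 237 CPM to 80.0 and 88.7, a 2.54-fold fall (SE 0.21 on the log2 scale, edgeR adjusted p = 0.0064). SLC16A3 (MCT4), the form known for lactate export, went the other way, from 319 and 342 to 521 and 476 CPM, 1.64-fold (SE 0.20 on the log2 scale, edgeR adjusted p = 0.0564). SLC16A6 and SLC16A7 were also counted as higher and SLC27A2, an acyl-CoA synthetase of very long fatty acids, as lower (84.0 and 95.9 against 40.0 and 44.1 CPM). In the phosphate group SLC20A1 went from 239 and 331 to 75.6 and 89.6 CPM, 3.17-fold lower (SE 0.25 on the log2 scale, edgeR adjusted p = 0.00617), and SLC17A9, a vesicular nucleotide carrier, from 137 and 148 to 79.5 and 55.1. None of the 6 genes placed in the phosphate and sugar phosphate group was counted as higher in shNC. The summed CPM of this group was 528 and 633 in shNC and 275 and 256 in shNC_ATRA, and SLC20A1 made up the larger part of the fall.

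A choline carrier, a heme carrier and 2 nucleoside carriers rose. SLC44A1, the choline carrier CTL1, had 45.8 and 42.1 CPM in shNC, 29.1 and 31.4 in shKDM3B, 161 and 220 in shNC_ATRA, and 146 and 193 in shKDM3B_ATRA, with a 4.73-fold rise in shNC (log2 2.24, SE 0.25, edgeR adjusted p = 0.00188). The ATRA groups lay apart from the untreated ones but overlapped each other. SLC48A1, which carries heme out of endolysosomes, rose from 40.5 and 36.7 to 92.6 and 101 CPM. The equilibrative nucleoside carriers SLC29A1 (161 and 171 against 360 and 304 CPM, 2.17-fold, edgeR adjusted p = 0.0124) and SLC29A3, its lysosomal relative (6.09 and 8.54 against 18.0 and 20.3 CPM), rose as well. The concentrative carrier SLC28A3 was lower, at 12.4 and 14.1 against 5.86 and 6.88 CPM (edgeR adjusted p = 0.105). The reduced folate carrier SLC19A1 (122 and 135 against 73.2 and 76.7 CPM) and the biotin and pantothenate carrier SLC5A6 (154 and 176 against 85.6 and 97.0) were counted as lower, with edgeR adjusted p of 0.0787 and 0.0678.

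Of 35 mitochondrial carriers, 5 were higher, close to the 14.3% of all genes, and 2 lower. SLC25A20, the carnitine/acylcarnitine carrier of fatty acid oxidation, rose from 17.7 and 16.1 to 43.8 and 58.5 CPM, 3.30-fold (SE 0.25 on the log2 scale, edgeR adjusted p = 0.00553). SLC22A5, the plasma membrane carnitine carrier, was also counted as higher (4.56 and 3.63 against 6.34 and 9.46 CPM). SLC25A29, a carrier of basic amino acids, was lower at 6.63 and 6.11 against 12.4 and 28.8 CPM, a call that was lost without shNC replicate 2 (log2 -0.85). The mitochondrial iron importer SLC25A37 had 127 and 141 CPM in shNC and 103 and 68.2 in shNC_ATRA and did not pass (log2 -0.53, SE 0.24). SLC25A3 (606 and 810 CPM with ATRA) and SLC25A5 (712 and 1090) did not pass either.

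Among ion carriers 4 of 14 were higher and 1 lower. Of 21 metal carriers, 2 were higher and 4 lower. The zinc and iron carrier SLC39A14 fell from 78.9 and 96.1 to 31.2 and 33.9 CPM (2.47-fold, edgeR adjusted p = 0.0104) and the magnesium carrier SLC41A1 from 14.3 and 17.0 to 5.69 and 2.84, the latter not passing without shNC replicate 2 (log2 -1.64). SLC11A2 (DMT1), which moves iron out of endosomes, had 48.8 and 41.3 CPM in shNC and 29.4 and 35.4 with ATRA and did not pass (log2 -0.35, SE 0.23). Among peptide and organic ion carriers, SLC15A2 (PEPT2) rose from 3.45 and 6.42 to 14.7 and 22.5 CPM, 4.10-fold (edgeR adjusted p = 0.0206), and SLC22A20, annotated as a pseudogene, was lower at 3.44 and 1.98 against 8.27 and 7.86, a call that was lost without either shNC library (log2 -1.45 and -1.50).

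**Figure D3:**
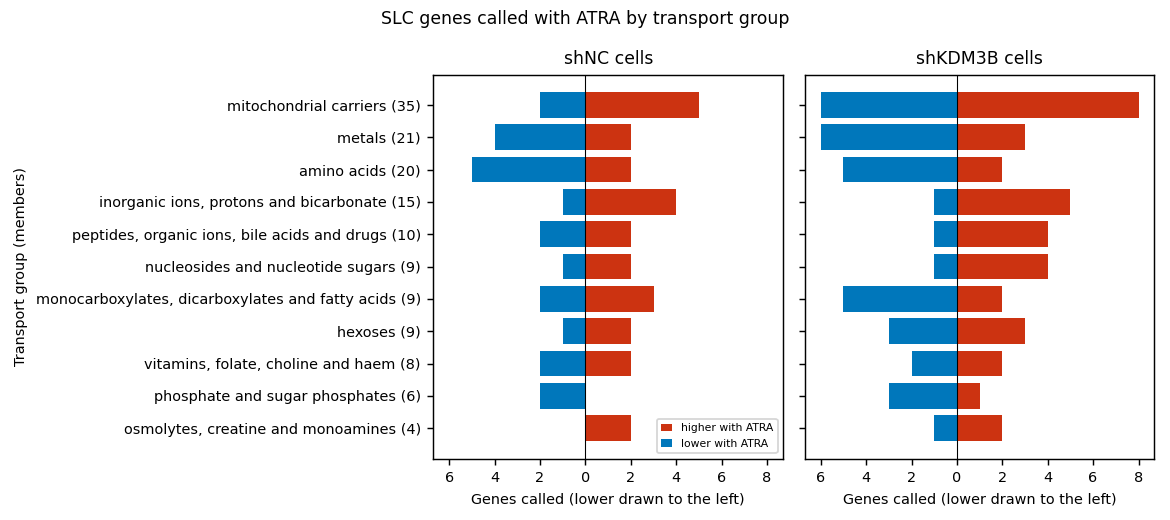
Number of SLC genes counted as higher (bars to the right) or lower (to the left) with ATRA, by transport group, in shNC cells (left panel, where agreement of both shNC_ATRA libraries was required) and in shKDM3B cells (right panel, without such a requirement). Amino acid carriers show 5 lower and 2 higher in both panels, where the 5 are the same genes and the 2 are not (SLC38A9 and SLC7A11 in shNC, SLC36A1 and SLC3A1 in shKDM3B, the last at or near 0 in the libraries with a low share of reads outside genes); SLC33A1, alone in its group, is not drawn.

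The counts moved when 1 library was left out, and so did the shares over all genes. Without shNC replicate 1, 12 SLC genes were higher and 18 lower (8.16% and 12.2%, against 6.79% and 5.11% of all genes), and without shNC replicate 2 they were 13 and 11 (8.84% and 7.48%, against 6.94% and 4.11%). Without shNC_ATRA replicate 1 the counts were 38 and 26 (25.9% and 17.7%, against 21.4% and 17.0%), and without shNC_ATRA replicate 2, which removes the library with the high share outside genes, 24 and 32 (16.7% and 22.2%, against 12.9% and 11.7%). With 1 library left out at a time, log2 was 3.04 to 3.21 for SLC2A5, 2.77 to 3.06 for SLC5A3, -2.72 to -2.15 for SLC7A5 and -1.48 to -1.25 for SLC16A1. The range was wider for SLC25A29 (-2.09 to -0.85) and SLC25A35 (1.31 to 3.01). Some genes named above lost their calls without either shNC library (log2 without replicate 1 and without replicate 2). They were SLC16A3 (0.63 and 0.76), SLC16A6 (1.09 and 0.85), SLC16A7 (0.80 and 0.63), SLC19A1 (-0.76 and -0.59), SLC22A5 (1.21 and 0.91), SLC28A3 (-1.05 and -0.84), SLC38A9 (0.79 and 0.77) and SLC50A1 (0.65 and 0.95). SLC5A6 (-0.64), SLC7A11 (0.74) and SLC17A9 (-0.92) lost theirs without shNC replicate 2. Calls over all genes fell in these refits too, so a lost call there does not by itself mean a lost change. Without shNC_ATRA replicate 2 the calls of SLC22A5 (log2 0.70), SLC38A9 (0.41) and SLC50A1 (0.39) were lost too.

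In 4 SLC genes the values were at or near 0 in the 5 libraries with a low share of reads outside genes and well above 0 in the other 3, also within the shNC_ATRA pair. SLC5A2 (the renal glucose carrier SGLT2) had 0 counts in the 5 libraries with a low share outside genes, shNC_ATRA replicate 1 included, and 34.4, 33.6 and 28.9 CPM in the other 3. SLC9A3, a sodium/proton exchanger of epithelia, had 0.0423 to 0.257 CPM in the 5 and 39.4, 41.4 and 45.4 in the 3. SLC3A1, the heavy chain of the renal cystine carrier, had at most 0.296 CPM against 16.4, 26.3 and 20.7, and SLC18A2, the vesicular monoamine carrier, at most 0.558 against 23.8, 26.7 and 24.2. No fold change is given for these 4 genes. In each, at least 25% of the annotated exon length lies under exons of a gene on the opposite strand (GENCODE release 44): C16orf58 at SLC5A2 (40.7%), EXOC3 at SLC9A3 (30.3%), PREPL at SLC3A1 (29.4%) and PDZD8 at SLC18A2 (56.4%). Those partners were present in all 8 libraries, for example EXOC3 at 97.4 to 143 CPM and PREPL at 54.3 to 95.0. Whether the counting used strand is not given in the sources used here, so reads of such pairs may not be told apart. These 4 were not the only genes that followed the split. Some genes counted as higher with ATRA in shNC also had more CPM in each of the 3 libraries than in any of the 5. The lowest of the 3 and the highest of the 5 were, for example, 22.5 and 14.7 CPM in SLC15A2, 9.46 and 6.34 in SLC22A5 and 20.1 and 18.0 in SLC29A3. They were 31.3 and 27.4 in SLC38A9, 101 and 92.6 in SLC48A1 and 50.6 and 41.2 in SLC50A1. The part of the split in these rises was not tested.

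Across all 147 genes, 10 differed at least 2-fold between shNC_ATRA replicate 1 and replicate 2 (CPM + 0.5). They were 6 of 8 genes with at least 25% of exon length overlapped on the opposite strand, 0 of 12 with 10% to under 25%, 1 of 48 with less, and 3 of 79 with none. The summed-count limit itself brought 5 of these 6 most overlapped genes into the 147, since over the 5 libraries with a low share outside genes SLC5A2 had 0 counts, SLC3A1 11, SLC9A3 14, SLC18A2 28 and SLC31A2 381, all under 500. The count of that class was therefore partly fixed by the selection and is a description. SLC25A35, a mitochondrial carrier with 28.7% overlap by RANGRF, was counted as higher with ATRA, but its 15.8 and 48.7 CPM in shNC_ATRA, against 6.19 and 7.14 in shNC, followed the split too, and the call was lost without either shNC library (log2 2.27 and 2.50). SLC31A2 (64.0% overlap by FKBP15) had 2.37 and 7.48 CPM in shNC_ATRA. The part of the overlap and of the library split in these values was not tested. SLC18A2 met the P and fold limits in shNC but was dropped because its shNC_ATRA replicate 1 (0.296 CPM) lay within the shNC range.

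**Figure D4:**
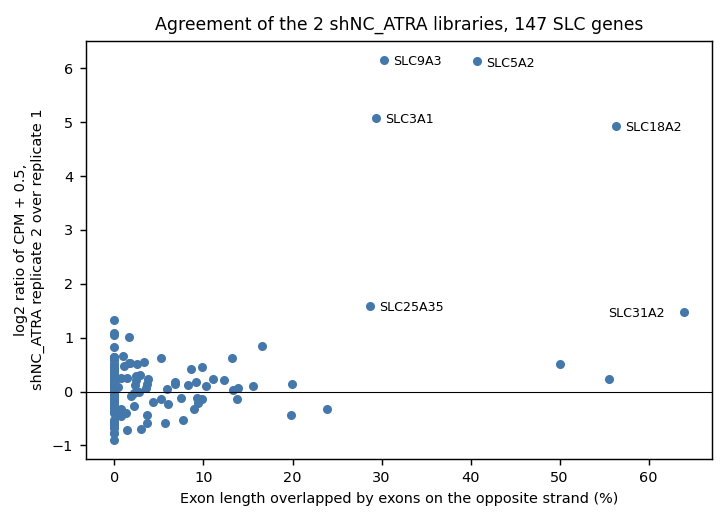
Log2 ratio of CPM + 0.5 between shNC_ATRA replicate 2 and replicate 1 (vertical axis) against the percentage of annotated exon length overlapped by exons on the opposite strand (horizontal axis), 1 point per SLC gene. The named genes, with 28.7% to 64.0% overlap, are those of the most overlapped class that differ at least 2-fold.

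ATRA in shKDM3B cells gave 36 higher and 34 lower of 147 SLC genes tested (24.5% and 23.1%), against 24.0% and 18.3% of all 12756 genes. The 36 include SLC5A2, SLC3A1, SLC9A3 and SLC18A2, which are at or near 0 in the libraries with a low share outside genes and reached the summed-count limit only through the others. Among genes with at least 100 counts over those 5 libraries, a setting chosen after the data were seen, 32 of 143 SLC genes were higher and 34 lower (22.4% and 23.8%), against 18.1% and 19.8% of 11532 genes. With the adjusted p the counts over the 147 were 35 and 32, where the shares over all genes were 23.0% and 17.3%. In this comparison all ATRA libraries had the high share of reads outside genes and all untreated ones the low share. The SLC genes counted in both backgrounds were 19 higher and 20 lower, and 0 were counted in opposite directions; the 19 are 73.1% of those higher in shNC and 52.8% of those higher in shKDM3B, and the 20 are 90.9% and 58.8% of those lower. Over all genes the same shares were 76.4% and 44.6% for those higher and 81.1% and 46.9% for those lower, and 8 genes were counted in opposite directions. SLC44A1 (5.95-fold), SLC2A5 (5.41-fold), SLC15A2 (4.40-fold) and SLC25A20 (3.07-fold) rose here as in shNC, and SLC7A5 (4.89-fold), SLC1A4 (5.17-fold), SLC7A2 (4.38-fold) and SLC20A1 (3.52-fold) fell, each with an edgeR adjusted p under 0.001. The creatine carrier SLC6A8 had 8.64 and 22.0 CPM in shKDM3B and 1.96 and 1.74 in shKDM3B_ATRA, 7.86-fold lower (log2 -2.98, and -3.54 to -2.12 with 1 library omitted at a time). In shNC it had 2.33 and 9.89 against 3.20 and 3.44, with overlap. SLC16A10, a carrier of aromatic amino acids, went from 6.89 and 4.09 CPM to 1.03 and 0.969. Without shKDM3B, the group where they were highest, SLC6A8 had 411 counts and SLC16A10 252, so both reached the summed-count limit only through the group from which these falls are measured. SLC25A6, which lies in the pseudoautosomal region, had 79.3 and 8.75 CPM in the shKDM3B pair, and its count as lower rests on replicate 1 (log2 -1.97 with it, 0.28 without).

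KDM3B knockdown without ATRA changed fewer SLC genes: 10 of 143 tested were higher and 3 lower (6.99% and 2.10%), against 3.48% and 3.53% of all 13855 genes. By edgeR 0 had an adjusted p under 0.05, where 0% of all genes were higher and 0.0217% lower by that rule. DESeq2's test put SLC39A6, SLC39A10, SLC7A2, SLC4A7 and SLC28A3 under 0.05 after adjustment, and the share of all genes by that rule is not given. By unadjusted P and fold, DESeq2 counted 10 higher and 3 lower (6.99% and 2.10%), against 2.93% and 2.79% of all genes. The medians were 0.13 for the SLC genes and 0.00 for all genes on the log2 scale. The higher genes included 2 zinc importers of the ZIP family, while the other SLC39 genes tested did not pass, among them SLC39A13 at log2 -0.39 and SLC39A11 at -0.11. SLC39A6 (ZIP6) had 17.0 and 18.0 CPM in shNC and 42.9 and 38.5 in shKDM3B, 2.35-fold (log2 1.23, SE 0.18, edgeR adjusted p = 0.0931), and SLC39A10 (ZIP10), with which it is known to form a heteromer, had 32.8 and 42.5 against 73.1 and 61.4, 1.81-fold (SE 0.19 on the log2 scale, edgeR adjusted p = 0.151). SLC7A2 went from 55.4 and 68.9 to 120 and 95.8 CPM, SLC38A1 from 158 and 161 to 211 and 269, the bicarbonate carrier SLC4A7 from 34.3 and 36.1 to 59.9 and 53.2, and SLC2A1 from 65.6 and 102 to 122 and 144. SLC45A3 (4.21 and 7.78 against 11.2 and 12.4 CPM) lost its call without shNC replicate 1 (log2 0.62), and the thiamine carrier SLC19A2 (21.0 and 17.0 against 38.6 and 24.1) without shKDM3B replicate 1 (log2 0.37). SLC16A7 and SLC29A2 were the others. The calls of SLC38A1 (log2 0.41), SLC2A1 (0.40), SLC16A7 (0.49) and SLC29A2 (0.35, each the lowest value with 1 library omitted) were lost as well, so that 4 of the 10 kept their call in every refit: SLC39A6, SLC39A10, SLC7A2 and SLC4A7.

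The 3 lower genes were SLC28A3, SLC44A2 and SLC15A3. SLC28A3, on chromosome 9 (84275457 to 84340758, minus strand, hg38), had 12.4 and 14.1 CPM in shNC and 4.63 and 5.12 in shKDM3B, 2.67-fold lower (log2 -1.42, SE 0.24, edgeR adjusted p = 0.105). Without shNC, the group where it was highest, it had 447 counts and would not have been among the 147, and SLC15A3 had 444 without its highest group, so for both the lower values are descriptions. SLC44A2, a choline carrier-like protein of leukocytes and endothelium, had 24.5 and 24.3 against 6.74 and 15.6 CPM, with a larger spread in the knockdown. SLC15A3, a lysosomal peptide and histidine carrier, had 8.62 and 6.81 against 3.50 and 4.39 CPM and was not counted without shKDM3B replicate 1 (log2 -0.78).

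With ATRA present, shKDM3B cells had 11 SLC genes higher and 7 lower than shNC cells of 147 tested (7.48% and 4.76%), against 2.42% and 4.37% of all 14281 genes. By edgeR 0 had an adjusted p under 0.05, where 0% of all genes were higher and 0% lower by that rule. DESeq2's test put some under 0.05 after adjustment, SLC40A1, SLC38A1, SLC28A3 and SLC5A3 among them, and the share of all genes by that rule is not given. By unadjusted P and fold, DESeq2 counted 11 higher and 8 lower (7.48% and 5.44%), against 2.66% and 4.48% of all genes. The edgeR counts moved with the library left out, and so did the shares over all genes. Without shNC_ATRA replicate 1, which leaves only libraries of the high share, they were 11 and 15 (7.48% and 10.2%, against 8.78% and 8.19% of all genes), and without shNC_ATRA replicate 2 they were 34 and 18 (23.1% and 12.2%, against 23.2% and 13.3%), so that the larger share of higher SLC genes was not seen in either refit. Without shKDM3B_ATRA replicate 1 they were 2 and 1 (1.36% and 0.68%, against 0.265% and 0.624%), and without shKDM3B_ATRA replicate 2 they were 2 and 6 (1.36% and 4.08%, against 0.438% and 1.45%). SLC40A1 (ferroportin, the cellular iron exporter, chromosome 2, 189560590 to 189583758, minus strand) had 9.48 and 10.5 CPM in shNC_ATRA and 23.0 and 27.4 in shKDM3B_ATRA, 2.47-fold (log2 1.31, SE 0.23, edgeR adjusted p = 0.502), a call that was lost without shKDM3B_ATRA replicate 2 (log2 1.17). SLC38A1 had 69.8 and 58.5 against 162 and 139 CPM, 2.30-fold (SE 0.15 on the log2 scale, edgeR adjusted p = 0.502). SLC38A2, SLC36A4, SLC7A2, SLC4A7, SLC16A7, SLC26A2, SLC39A8, SLC2A13 and SLC25A46 completed the higher list, with folds of 1.55 to 2.0. These calls were lost without shKDM3B_ATRA replicate 1, with log2 from 0.56 (SLC26A2) to 1.11 (SLC2A13). Except for SLC4A7 they were also lost without replicate 2, with log2 from 0.58 (SLC16A7) to 1.15 (SLC7A2). Calls over all genes fell in these refits too, so a lost call there does not by itself mean a lost change. Among the 11 higher genes, only SLC38A1 kept its call whichever library was left out.

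SLC28A3, one of the genes kept through its highest group, had 5.86 and 6.88 CPM in shNC_ATRA and 0.206 and 0.678 in shKDM3B_ATRA, 14.3-fold lower (log2 -3.84, SE 0.70, edgeR adjusted p = 0.502), and leaving out each library in turn gave log2 -4.92 to -3.23. SLC44A2 (21.4 and 27.7 against 7.21 and 9.89 CPM) and SLC15A3 (5.80 and 7.05 against 2.68 and 2.42) were lower as well. These calls of SLC44A2 and SLC15A3 were lost without shKDM3B_ATRA replicate 1 (log2 -1.33 and -1.42), and that of SLC15A3 also without replicate 2 (log2 -1.30). SLC5A3 (160 and 175 against 90.4 and 97.6 CPM), SLC7A11 (82.3 and 65.4 against 35.5 and 41.6), SLC2A3 (61.0 and 68.4 against 26.6 and 42.9) and SLC25A22, a mitochondrial glutamate carrier (60.9 and 55.8 against 27.1 and 35.9), were also counted as lower in the treated cells. Without shKDM3B_ATRA replicate 1, SLC5A3 (log2 -0.80), SLC7A11 (log2 -0.84), SLC2A3 (log2 -0.61) and SLC25A22 (log2 -0.72) were not counted, so that among the 7 lower genes only SLC28A3 kept its call in every refit. The genes higher in both knockdown comparisons were SLC38A1, SLC7A2, SLC4A7 and SLC16A7. The overlap of these comparisons over all genes is not given, so the names are a description.

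The difference between the 2 ATRA responses was tested in 1 fit over all 8 libraries. Of 147 SLC genes, 1 had a larger log2 response in shKDM3B (0.68%) and 9 a smaller one (6.12%), against 1.27% and 2.72% of all 13528 genes. By edgeR 0 had an adjusted p under 0.05, where 0% of all genes had a larger and 0% a smaller response by that rule. DESeq2's test put SLC5A3 under 0.05 after adjustment, and the share of all genes by that rule is not given. By unadjusted P and size, DESeq2 counted 2 larger and 10 smaller (1.36% and 6.80%), against 1.31% and 2.40% of all genes. The response of SLC5A3 was smaller by 1.44 on the log2 scale (SE 0.23, edgeR adjusted p = 0.962), a 7.62-fold rise in shNC against a 2.84-fold rise in shKDM3B. The response of SLC28A3 was lower by 2.43 (SE 0.61, edgeR adjusted p = 1.0), as it fell further with ATRA in shKDM3B. It rests on 2 and 7 counts in shKDM3B_ATRA, and leaving out each library in turn gave -3.53 to -1.80. SLC2A5 (8.82-fold against 5.41-fold), SLC6A6, SLC12A4, SLC2A3, SLC25A1 (the mitochondrial citrate carrier), SLC39A4 and SLC39A6 were the other 7. Of the 9, SLC5A3, SLC28A3 and SLC39A6 kept their call in every refit without 1 library. Without shNC_ATRA replicate 2, 12 SLC genes had a larger response and 10 a smaller one (8.16% and 6.80%), against 8.34% and 9.03% of all genes. SLC6A6 rose 2.48-fold in shNC, whereas in shKDM3B it had 108 and 134 CPM without and 119 and 156 with ATRA. SLC39A6 had 17.0 and 18.0 CPM in shNC and 24.8 and 28.3 in shNC_ATRA, but 42.9 and 38.5 in shKDM3B and 28.5 and 36.8 in shKDM3B_ATRA, so that it entered ATRA from a higher level and ended near the same level.

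SLC40A1 was the gene with the larger response. It had 15.2 and 16.7 CPM in shNC, 9.48 and 10.5 in shNC_ATRA, 21.2 and 17.5 in shKDM3B, and 23.0 and 27.4 in shKDM3B_ATRA, and the interaction was 1.01 on the log2 scale (SE 0.28, edgeR adjusted p = 1.0). In shNC both ATRA libraries lay below both untreated ones, and in shKDM3B both lay above. The next smallest interaction P among larger responses were those of SLC38A1 (log2 0.58, SE 0.24) and SLC22A20 (log2 1.13, SE 0.48), which missed a limit of fold or P and were counted in some of the other settings. The interaction compares groups that differ in the share of reads outside genes, and the part of this was not tested.

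**Figure D5:**
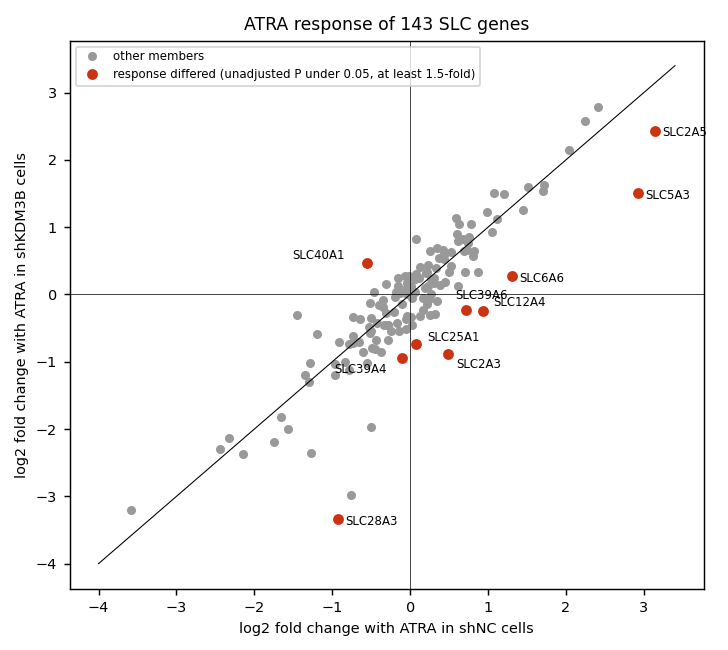
Log2 fold change with ATRA in shKDM3B (vertical axis) against that in shNC (horizontal axis) for 143 SLC genes, with the line of equal response. SLC18A2, at or near 0 in the untreated libraries, is left out, as are SLC3A1, SLC5A2 and SLC9A3, which were not tested in shNC. Red points are the 10 genes whose responses differed by unadjusted P and fold, 9 of them below the line and SLC40A1 above it.

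Transporters and partner proteins whose names lack the SLC number form were examined as a list of 40 genes, such as the mitochondrial pyruvate carrier subunits, basigin (the chaperone of SLC16A1) and the sodium pump. With ATRA in shNC, 3 of 39 tested were higher (SLCO4C1, MPC2 and MFSD5) and 3 lower (SLC35F2, ATP1B1 and FLVCR2), where the shares over all genes were 14.3% and 10.8%. SLCO4C1, an organic anion carrier, went from 1.22 and 0.972 to 8.65 and 13.1 CPM, and ATP1B1, a subunit of the sodium pump, from 28.5 and 19.3 to 2.72 and 6.71. In shKDM3B 8 of 38 were higher and 5 lower with ATRA, against 24.0% and 18.3% of all genes. KDM3B knockdown gave 0 higher and 0 lower of 39 without ATRA, and 3 higher (SLC35D1, SLC35F5 and SLCO3A1) and 1 lower of 36 with it, against 3.48% and 3.53% of all genes without ATRA and 2.42% and 4.37% with it. The 1 lower was MFSD2A, a carrier of lysophosphatidylcholine, at 36.6 and 31.4 against 12.2 and 14.8 CPM, which was also 1 of 2 genes with a smaller ATRA response in shKDM3B, beside UNC93B1 (2.72% of all genes had a smaller response).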

How the data were processed

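RNA-seq was done on 8 libraries of NB4 cells. Per the study's methods, paired reads were adapter-trimmed by the authors (Trim Galore), placed on hg38 by HISAT2 and summed per gene by HTSeq; the deposited files hold these raw counts, for 56470 names in the untreated and 56609 in the ATRA libraries. Rows that name no gene were kept out of totals, and the pairs assigned to no gene were 8.49% to 51.4%. Counts were tested with edgeR 4.0.16 (R 4.3.3; filterByExpr, TMM scaling, quasi-likelihood F test, limits of P and fold as the study set them, Benjamini-Hochberg adjustment over all genes of each fit) between 2 groups at a time, or over all 8 libraries for the interaction; DESeq2 1.42.0, other scalings, filters and limits, a replicate block and leaving out each library were alternatives. The scripts were tested on simulated data. Exon overlaps were taken from GENCODE release 44. The SLC genes, transport groups and lists were chosen with earlier results of these data known. Genes were named by rule: the 10 highest in shNC, the 10 largest rises and falls with ATRA in shNC, the 5 largest in each other comparison, the 3 smallest interaction P in each direction, the neighbours of the count limit, and 16 genes of known roles, of which SLC11A1 was below the limit; a few genes of the rule and of the marker lists are not reported here, but SLC members among them stay in the counts; further genes are named as the ones counted, after their values were seen.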

Additional observations from a re-analysis of the deposited data

Results flagged for a closer look

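In 4 SLC genes every shNC_ATRA library lay on one side of both shNC libraries while every shKDM3B_ATRA library lay on the other side of both shKDM3B libraries. These were 2.72% of the 147 genes, against 1.40% of all 13528 genes (190), and the count is a description. For SLC39A6, higher with ATRA in shNC and lower in shKDM3B, the responses differed by -0.97 on the log2 scale (SE 0.25, edgeR adjusted p = 1.0), and for SLC40A1, lower in shNC and higher in shKDM3B, by 1.01 (SE 0.28, edgeR adjusted p = 1.0). The mitochondrial carriers SLC25A25, an ATP-magnesium/phosphate carrier with 17.5 and 15.9 CPM in shNC, 17.8 and 19.2 in shNC_ATRA, 14.9 and 14.6 in shKDM3B and 14.0 and 13.9 in shKDM3B_ATRA, and SLC25A28, an iron importer with 43.98 and 43.70, 59.17 and 44.05, 39.81 and 42.89, and 35.53 and 37.70 CPM in the same order, differed by -0.29 (SE 0.25) and -0.46 (SE 0.23), both with an edgeR adjusted p of 1.0. In SLC25A28 the shNC and shNC_ATRA libraries nearest to each other were apart by less than 0.1 CPM.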

How the results depend on the processing

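With the adjusted p at 0.05 in place of the unadjusted P, edgeR counted 0 SLC genes higher and 0 lower in the knockdown without ATRA, 0 and 0 with ATRA and 0 larger and 0 smaller for the difference in response, and 14 higher and 13 lower with ATRA in shNC. With a summed count of at least 2000, SLC28A3 (1024 counts) and SLC15A3 (775) dropped out of the genes lower in the untreated knockdown, and SLC44A2 (2562) stayed. The share of all genes at that limit is not given. The likelihood ratio test counted 6 higher in the treated knockdown (4.08%, against 1.72% of all genes), and the fit over all 8 libraries counted 11 lower there (7.48%, against 6.87%). Requiring both shNC_ATRA libraries to lie at least 1.5-fold from shNC left 17 higher with ATRA in shNC, against 10.4% of all genes. Larger responses in shKDM3B numbered 3 with DESeq2 size factors, library size alone, upper-quartile scaling or no low-count filter, and 2 with at least 10 counts in 2 libraries, the DESeq2 test or the replicate block, against 1.23% to 1.74% of all genes under these settings. The cause was not tested. When the replicate number entered as a block, counts higher and lower were 12 and 4 in the untreated knockdown, 8 and 6 in the treated one, 24 and 22 with ATRA in shNC, 36 and 33 in shKDM3B, and 10 smaller responses, against 4.43% and 4.53%, 1.25% and 2.42%, 12.7% and 9.88%, 24.2% and 18.5%, and 2.74% of all genes; same-numbered libraries had correlated deviations over 11690 genes of 0.383, 0.0219, -0.0652 and 0.190 in these 4 comparisons, and no label says that a number marks a shared batch. Leaving out each library in turn gave 11 to 18 higher and 3 to 6 lower in the untreated knockdown, 2 to 34 and 1 to 18 in the treated one, 12 to 38 and 11 to 32 with ATRA in shNC, 32 to 36 and 31 to 40 in shKDM3B, and 1 to 12 larger and 3 to 14 smaller responses; the shares over all genes in these refits were 3.21% to 6.73% and 3.15% to 4.82%, 0.265% to 23.2% and 0.624% to 13.3%, 6.79% to 21.4% and 4.11% to 17.0%, 20.6% to 25.1% and 16.7% to 21.1%, and 0.868% to 8.34% and 1.12% to 9.03%. A group left with 1 library was assumed to vary like the other. Of the fold changes of the genes that the naming rule chose, 215 of these refits kept their call, 22 lost it and 3 gained it, and of the other settings 485 kept it, 4 lost it and 9 gained it; 0 changed sign; SLC25A6, named outside that rule, did so with ATRA in shKDM3B without shKDM3B replicate 1 (log2 0.28). Depth of 9708739 to 33017787 counts limits the genes of low CPM most.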

Other observations

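SLC24A4, a sodium/calcium and potassium exchanger, had 417 counts in all and so was not among the 147 genes. It had 0.206 to 0.303 CPM in the 4 untreated libraries, 13.1 and 9.72 in shNC_ATRA, and 1.96 and 3.68 in shKDM3B_ATRA. SLC4A5, a bicarbonate carrier just under the limit with 472 counts, had at most 0.254 CPM in the 5 libraries with a low share of reads outside genes and 19.1, 9.89 and 13.4 in the other 3. SLC25A5-AS1, on the opposite strand of SLC25A5, had 0.592 to 1.08 CPM in the 5 and 187, 216 and 205 in the 3.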
